A study of Homo sapiens with 2 samples.

Results

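The LY6 family cluster lies near the end of the long arm of chromosome 8, and its chromatin loops were selected on position: a loop was taken when its anchors were different, lay up to 2 Mb apart from midpoint to midpoint, and at least 1 of them overlapped chr8:143700000-144300000 (hg19). This rule gave 1495 of the 1973472 loops of the data and 71 of the 250222 anchors. The region was chosen with its loop counts in view, so the counts below are a description and carry no test. The data were H3K27ac HiChIP libraries of HCT116, a widely used cell line from a human colorectal carcinoma, in 2 replicates of a single condition, which leaves no contrast between conditions. In HiChIP, chromatin is cut, here with MboI, ligated in place and immunoprecipitated. Each sequenced pair of ends is then read as a contact at chromatin enriched for H3K27ac, a mark of active enhancers and promoters. The anchors were not checked against a separate H3K27ac profile here. The labels number the replicates without stating whether they came from separate cultures, so the spread between them may be technical.

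The genes of this family encode small proteins with the three-finger fold that LY6 antigens share with the urokinase receptor. Some are held on the cell surface by a glycolipid anchor and some are secreted, and several bind or modulate nicotinic acetylcholine receptors. Genes of a tandem cluster like this one arose by duplication and lie close together, so one stretch of acetylated chromatin can be near several promoters at once. The measurements concern chromatin contacts only, and expression of these genes was not analysed here.

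The 12 family genes considered were PSCA, LY6K, SLURP1, LYPD2, SLURP2, LYNX1, LY6D, GML, LY6E, LY6L, LY6H and GPIHBP1, in genomic order. A promoter was the start site of the canonical transcript ± 2.5 kb, and 10 of the 12 genes had an anchor that held the start site itself. GML and LY6L had anchors only within that distance. LY6S, a protein-coding family gene added to the description after the annotation had been read, had its start in an anchor of its own.

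The window held 814 loops with 1048 counts in replicate 1 and 896 loops with 1208 counts in replicate 2 (855 ± 58.0 loops, mean ± SD, n = 2), where a count is a paired-end tag that joins the anchors of the loop. The 2 libraries held 1885481 and 2131466 counts in all. Most loops of the window were single observations, with 1159 loops at a summed count of 1. The loops that were dense enough to describe one by one were those with a summed count of at least 5, which are called strong below. There were 50 of them, 3.34% of the loops of the window (95% exact binomial interval 2.49% to 4.39%), compared with 1.47% of all loops of the data. Just outside this threshold lay 31 loops with a summed count of 4, and just inside it 20 loops with 5. Intervals here and below cover counting error only and leave out the spread between replicates. The counts hold no molecular identifiers, so copies of 1 molecule could not be told apart here.

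Both replicates held 48 of the 50 strong loops. The exceptions joined chr8:143874210-143876673 with chr8:143878176-143884146, at 6 and 0 counts in replicates 1 and 2, and chr8:144087126-144088964 with the LY6E anchor, at 5 and 0 counts. At all depths 215 loops were shared, 26.4% of those in replicate 1 and 23.996% of those in replicate 2, compared with 19.7% and 17.4% over all loops. The split of the summed count between replicates, which the choice of the region did not use, could be tested for the 9 loops with a summed count of at least 10. An exact two-sided binomial test was used, with Benjamini-Hochberg adjustment over the 3189 such loops of the genome. Of the 9 loops, 0 passed, and 0 had an unadjusted p under 0.05. Most of the 9 had summed counts of 11 to 13, where even a loop found in 1 replicate only would hardly pass this adjustment. The adjusted result therefore does not show that these loops were alike in the replicates. Over the genome 0 of 3189 loops (0%) passed after adjustment and 120 had an unadjusted p under 0.05.

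Both anchors lay in the window in 45 of the 50 strong loops. At least 20 kb between midpoints was spanned by 20 of the 50, compared with 5774 of the 28962 strong loops of the data. Loops of this midpoint length thus took a larger share of the strong loops here. The distance between midpoints includes part of the anchors' width, and anchors were wider here (median 3480 bp, compared with 2541 bp over the data). The loop from the ARC anchor to its neighbour, at 20.45 kb, left 2.97 kb between facing edges. The pairs that left the window were many but sparse. They comprised 467 loops toward the centromere with 3 strong ones, and 331 toward the telomere with 2. The median length of all loops of the window was 243 kb, compared with 174 kb over the data. It was 86.3 kb for loops with both anchors in the window and 531 kb for loops with 1 anchor outside. The rule took a loop with only 1 anchor in the window, so the median over all loops depends on this rule.

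**Figure D1:**
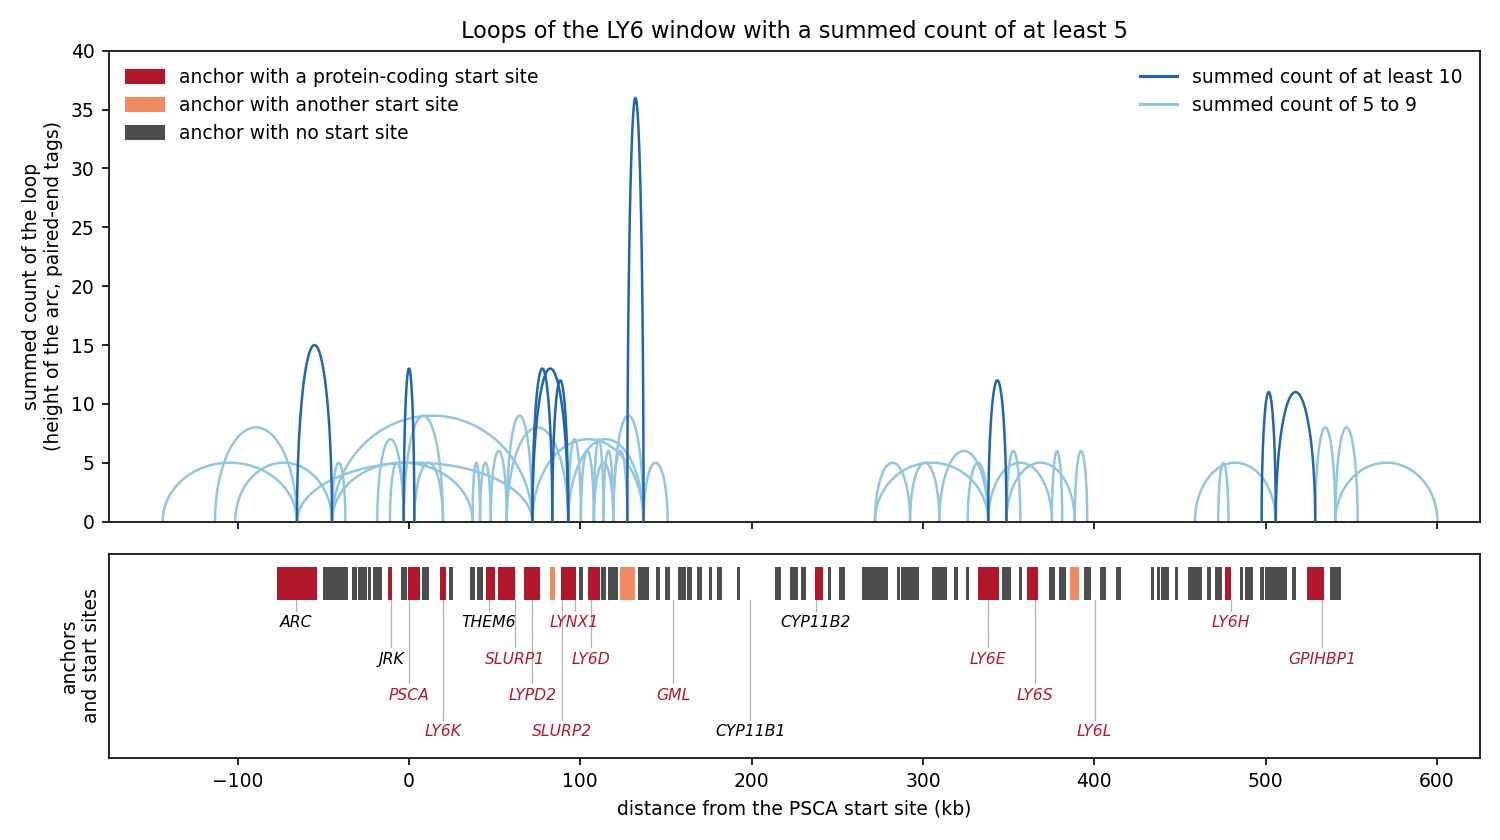
The 50 strong loops drawn as arcs between anchor midpoints, with the summed count of both replicates as height (upper panel, paired-end tags) against distance from the PSCA start site in kb. The lower panel shows the 71 anchors and the start sites, with LY6 family genes in red, and no strong loop reaches the 12 anchors from GML to CYP11B2.

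The strong loops fell into a centromeric group from ARC to GML and a telomeric group from LY6E to GPIHBP1, as the map of strong loops shows. The telomeric group was itself divided. No strong loop reached or crossed the anchors from chr8:144165148 to chr8:144210719, between the loops around LY6E and LY6L and those from LY6H to GPIHBP1. Between the centromeric and telomeric groups, 12 anchors from chr8:143918661 to chr8:144016526 carried 0 strong loops. They hold part of GML, the start of CYP11B2 and the end of CYP11B1. CYP11B2 encodes aldosterone synthase and CYP11B1 the enzyme of the last step of cortisol synthesis. These anchors had 14 to 44 counts of loops each, with a median of 26.5, compared with 45 at the other anchors of the window. They were also narrower (median 2948 bp, compared with 4151 bp), and per kb their median was 8.57 counts, compared with 9.89 at the other anchors. They held more sequence words of 31 bases that occur repeatedly in the genome (median 11.7% of words, compared with 7.70%). The stretch was delimited after its values had been seen, and the part of repeats in its lower counts was not tested.

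The anchor with the most counts of the window was the one that holds LYPD2. This anchor, chr8:143829286-143838583, contains all 3 exons of the gene, and had 74 counts in replicate 1 and 79 in replicate 2. It also had the most strong loops, 6. The ARC anchor followed closely, at 76 and 74 counts, and both anchors lay far above the median of 40 summed counts of the anchors of the window and the median of 16 over the data.

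A further 4 anchors had 5 strong loops each. The first, chr8:143711453-143722533, lies between ARC and JRK, holds no annotated start, contains exons of the long non-coding RNA ENSG00000277332, and had 66 and 83 counts. The second, chr8:143850580-143859120, holds the start sites of both SLURP2 and LYNX1, so that their contacts cannot be told apart, and had 59 and 67 counts. The third, chr8:143895390-143902266, lies between LY6D and GML without any annotated gene, and had 71 and 75 counts. The fourth, chr8:144093835-144106209, contains LY6E with its 4 exons and the start of the divergent transcript LY6E-DT, and had 63 and 60 counts. These 5 anchors took part in 22 of the 50 strong loops.

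**Figure D2:**
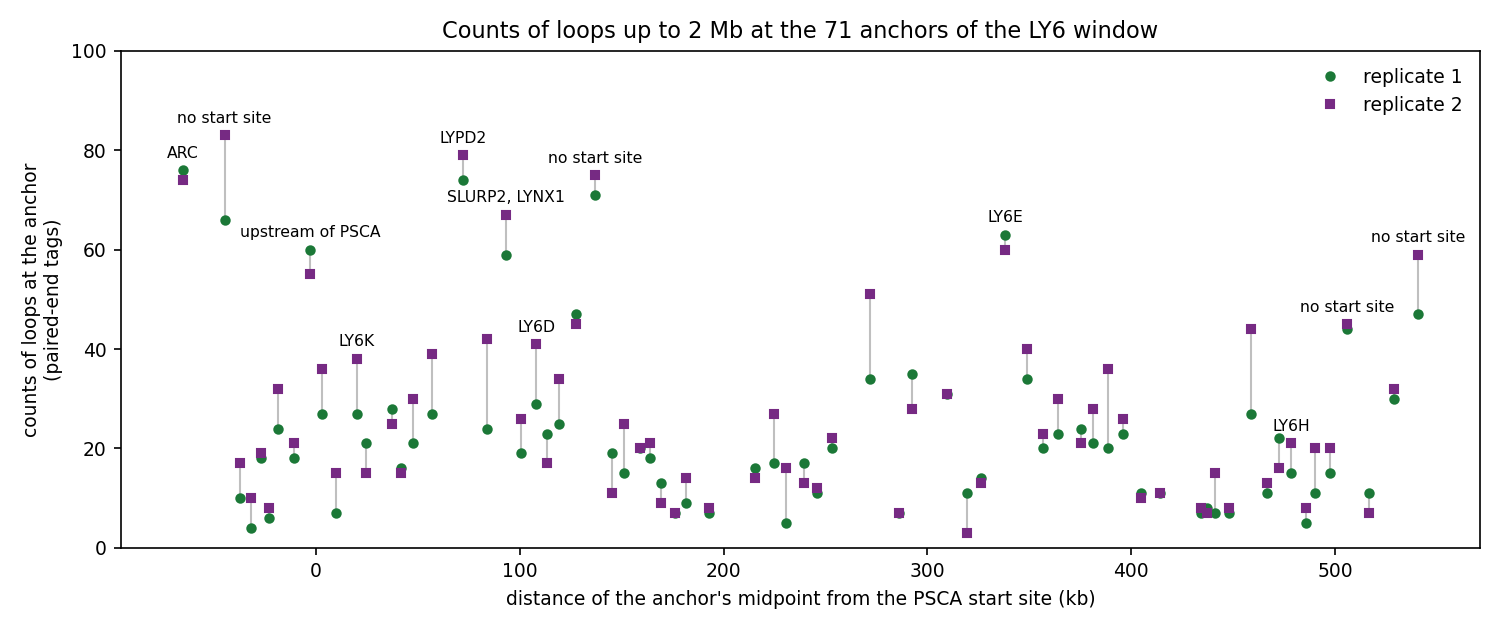
Counts of loops up to 2 Mb (paired-end tags) at each of the 71 anchors of the window in replicate 1 (circles) and replicate 2 (squares), against the distance of the anchor from the PSCA start site in kb. A grey line joins the replicates of an anchor, and the LYPD2 anchor is at 74 and 79 counts and the LY6H anchor at 15 and 21.

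Counts per anchor followed the width of the anchor. Over the 71 anchors the Spearman correlation of the summed count was 0.810 with width, 0.771 with the number of MboI sites in the anchor, and 0.851 with the count of tags whose both ends lay in the anchor. These are descriptions over anchors of the same libraries. Per kb of anchor the order of the genes changed. The densest anchor of the window was chr8:143757048-143760597, directly upstream of the PSCA start, at 32.4 counts per kb, whereas the anchor that holds this start was at 8.83. Over both of its anchors PSCA had 14.2 counts per kb. Among the 6 genes that name the region LY6K was thus highest at 20.8 counts per kb, followed by LYPD2 at 16.5 and PSCA. LY6H, LY6D and LY6E lay close together at 10.2, 10.1 and 9.94 counts per kb, near the median of 9.76 in the window, compared with 5.97 over all anchors.

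All 12 family promoters had at least 1 strong loop. Of the 16476 protein-coding promoters of the genome that had an anchor, 35.8% had one. Of 14 neighbouring genes, 12 had a strong loop, CYP11B2 had an anchor but no strong loop, and CYP11B1 had no promoter anchor. LY6S had 23 and 30 counts and 0 strong loops. The number of strong loops was 6 for LYPD2, 5 for LY6E, 5 for the shared anchor of SLURP2 and LYNX1, 4 for PSCA, 3 each for LY6D and SLURP1, 2 each for LY6K and GPIHBP1, and 1 each for GML, LY6L and LY6H.

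Counts at the promoters were also set against the counts expected from distance alone, over all anchor pairs up to 2 Mb at the same distances. This expectation differed little between promoters with 1 anchor, for example 18.8 counts at ARC and 23.1 at JRK. The ratios therefore follow the raw counts, which followed anchor width. The ARC anchor, outside the family, had 7.97 times the expectation (6.74 to 9.35). The value for LYPD2 was 7.84 times the expectation (6.64 to 9.18, exact Poisson interval at 95%) and LY6E 6.33 times (5.26 to 7.56). These intervals overlap, so LYPD2 and LY6E were not ordered by their counting error. PSCA, which encodes prostate stem cell antigen, had 77 and 75 counts over its 2 anchors and 3.65 times the expectation (3.09 to 4.27). LY6D, an epithelial surface antigen that also marks lymphoid progenitors, had 29 and 41 counts and 3.13 times (2.44 to 3.96). LY6K, a gene known for expression in testis and in several cancers, had 27 and 38 counts and 3.01 times (2.32 to 3.83). The intervals of LY6D and LY6K overlap. LY6H, best known from brain, was lowest of the 12 at 15 and 21 counts and 1.58 times the expectation (1.11 to 2.19). The next lowest was GML at 33 and 39 counts over 2 anchors and 1.72 times (1.35 to 2.17), and its interval overlaps that of LY6H.

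SLURP1 and SLURP2 encode secreted proteins. SLURP1 had 27 and 39 counts and 3.26 times the expectation (2.52 to 4.15). SLURP2, through the anchor it shares with LYNX1, had 59 and 67 counts and 5.91 times (4.92 to 7.04), and these intervals do not overlap. LYNX1, over this anchor and a further one, had 76 and 81 counts and 3.95 times (3.36 to 4.62), an interval that overlaps that of SLURP1. GPIHBP1, which carries lipoprotein lipase to the inner surface of capillaries, had 30 and 32 counts and 3.19 times (2.45 to 4.10). LY6L had 23 and 26 counts and 2.35 times (1.74 to 3.11).

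For single loops, the expected count was computed from distance and from the depth of both anchors, with the pair itself left out. At the PSCA promoter the upstream anchor was the busier one, with 60 and 55 counts in loops, compared with 27 and 36 at chr8:143761464-143768600, which contains the 3 exons of the gene. The upstream anchor joined this anchor in 5 and 8 counts of replicates 1 and 2, which was 1.14 times the expectation (0.608 to 1.95). A loop of 22.9 kb from the upstream anchor to the LY6K anchor chr8:143780162-143783292 had 4 and 5 counts, or 2.85 times the expectation (1.303 to 5.41). Its ratio was 2.68 in replicate 1 and 3.001 in replicate 2. The anchor with the PSCA exons joined LY6K in 1 and 4 counts, 1.99 times the expectation (0.646 to 4.64). Between the promoters of PSCA and LY6K as a pair there were 5 and 9 counts. This was 2.26 times the expectation (1.24 to 3.79) when the pair's own counts entered the depth of the anchors, unlike for the single loops. The strong loops of LY6K were these 2 loops to the anchors of PSCA, and both were found in both replicates. Toward the centromere, the upstream anchor of PSCA joined chr8:143740795-143746041, within JRK, in 4 and 3 counts, 1.51 times the expectation (0.608 to 3.12). It joined the anchor with the JRK start, chr8:143749814-143751802, in 3 and 2 counts, 0.805 times (0.261 to 1.88). The intervals of both loops toward JRK include 1.

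At LYPD2 the loops ran in both directions. Toward the telomere it joined chr8:143843963-143847155, which contains exons of SLURP2 and the start of a long non-coding RNA, in 5 and 8 counts, 1.42 times the expectation (0.756 to 2.43). It joined the SLURP2 and LYNX1 start anchor, 20.9 kb away, in 7 and 6 counts, 1.18 times (0.630 to 2.02). Toward the centromere it joined the SLURP1 anchor chr8:143813978-143823978 in 4 and 5 counts, 1.04 times (0.477 to 1.98). The intervals of all 3 ratios include 1. A long loop of 117 kb to chr8:143711453-143722533 had 6 and 3 counts, 2.95 times the expectation (1.35 to 5.602), with 4.42 in replicate 1 and 1.77 in replicate 2, and was chosen for mention after its values had been seen. The ARC anchor chr8:143684601-143708484 joined LYPD2 over 137 kb in 3 and 2 counts, 1.73 times (0.563 to 4.04). ARC is an immediate early gene of neurons, and its anchor is the widest of the window.

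SLURP1 and the SLURP2 and LYNX1 anchor were joined over 35.9 kb in 3 and 5 counts, 3.26 times the expectation (1.41 to 6.42). This loop passes over LYPD2. LYNX1 encodes a membrane-bound modulator of nicotinic receptors and SLURP1 a secreted one. The SLURP2 and LYNX1 anchor and chr8:143843963-143847155 were joined in 4 and 8 counts, 1.36 times (0.701 to 2.37).

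LY6D had only short strong loops, all of them up to 11.3 kb. Its anchor chr8:143866380-143873282 joined chr8:143874210-143876673 in 4 and 3 counts, the LYNX1 upstream anchor chr8:143861002-143863508 in 2 and 4, and chr8:143878176-143884146 in 1 and 4. Their ratios to the expectation were 1.81, 1.62 and 1.495, and the interval of each includes 1.

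The loop with the highest count of the window involved no family promoter. It joined chr8:143884935-143893813, which holds the annotated start of the pseudogene ENSG00000283686, with chr8:143895390-143902266 over 9.45 kb, in 14 and 22 counts. The summed count of 36 was 3.34 times the expectation (2.34 to 4.62), with 2.01 in replicate 1 and 5.73 in replicate 2, and 2.21 times when its own count entered the depth of both anchors. The anchor chr8:143895390-143902266 also reached family promoters, with 3 and 4 counts to LYPD2 over 64.9 kb, 2 and 5 counts to SLURP2 and LYNX1 over 43.98 kb, and 2 and 3 counts to GML over 14.1 kb. The intervals of these 3 ratios include 1.

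In the telomeric group the LY6E anchor had the most strong loops. LY6E is induced by interferon and restricts the entry of coronaviruses. It joined the adjacent chr8:144107792-144113487 in 8 and 4 counts, 0.912 times the expectation (0.471 to 1.59). Further strong loops of LY6E reached chr8:144067187-144075841 (4 and 2 counts), chr8:144135516-144138903 (3 and 2) and, over 66.1 kb, chr8:144026482-144041329 (1 and 4), besides the loop seen in replicate 1 only. None of these partners holds a start site of a protein-coding gene, and each of the 5 intervals includes 1. Loops of LYPD2, SLURP2 and LY6E beyond the 3 with the highest counts of each promoter were chosen for mention after their values had been seen.

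LY6H had a single strong loop, of 5.95 kb, to chr8:144232115-144236429, with 4 and 1 counts and 1.80 times the expectation (0.585 to 4.205). Its loops to chr8:144216405-144224931 and chr8:144249878-144254272 had 0 and 4 counts each, and were thus seen in replicate 2 only. Whether the replicates differed there could not be tested at these counts. GPIHBP1 lies nearby, and its anchor chr8:144285916-144295860 joined chr8:144261474-144274238, an anchor with no start site, over 23.03 kb in 6 and 5 counts. That loop had 3.86 times the expectation (1.93 to 6.91), at 4.19 and 3.53 in the replicates. The same intergenic anchor joined chr8:144258438-144260775 in 5 and 6 counts, 2.53 times (1.26 to 4.53).

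**Figure D3:**
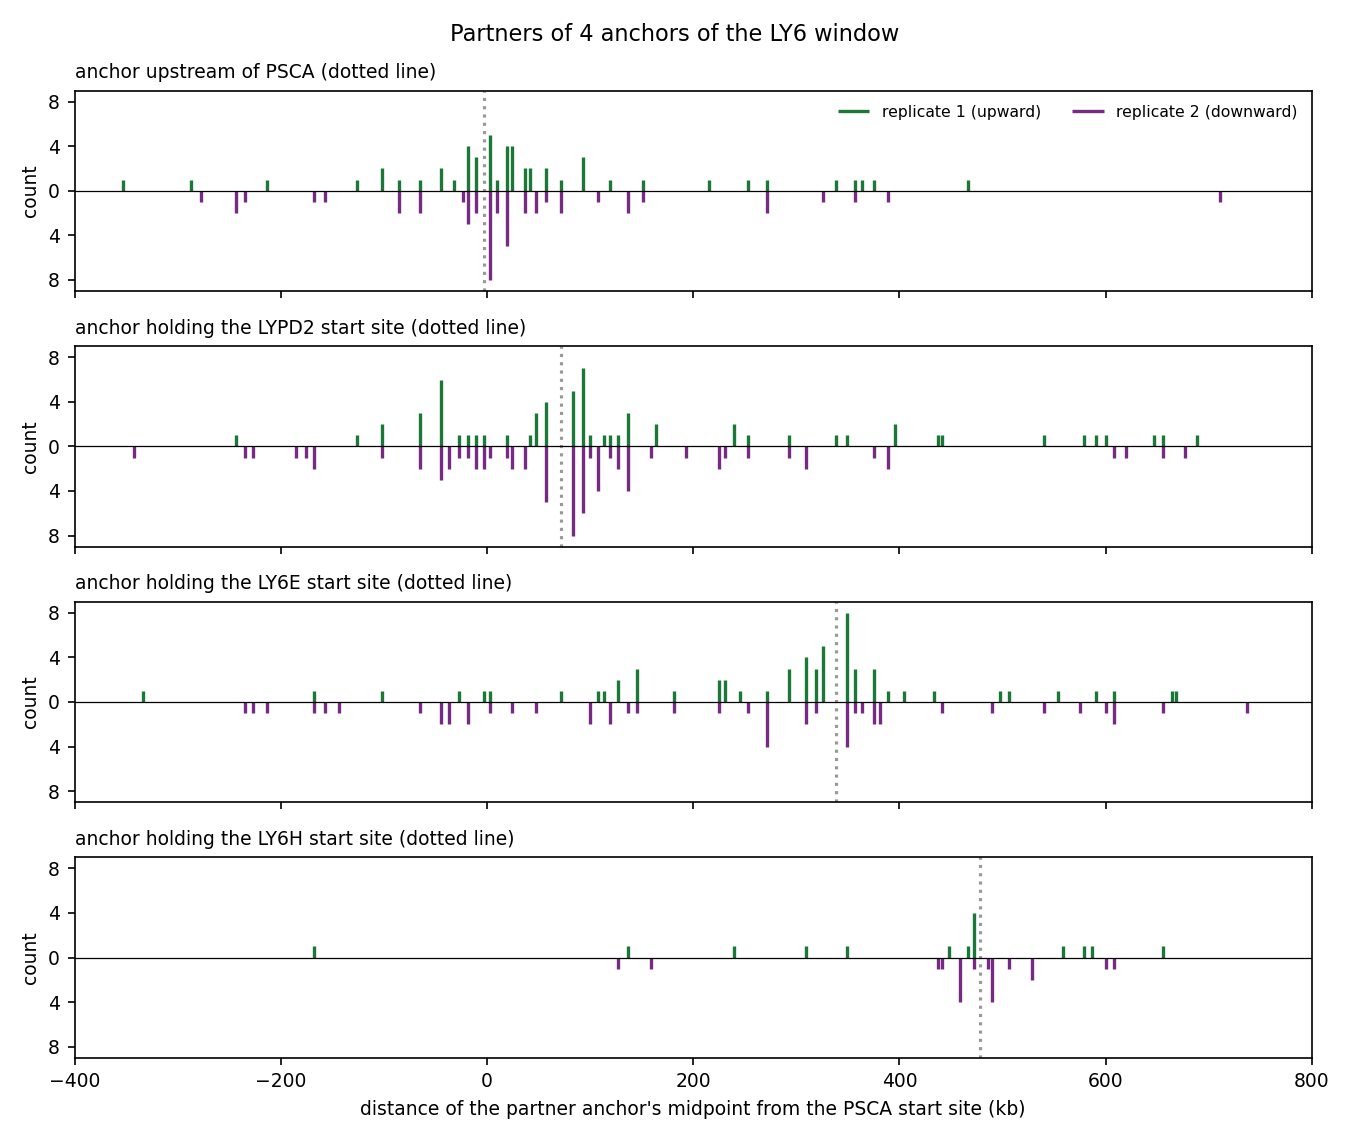
Counts (paired-end tags) of the loops of 4 anchors in replicate 1 (upward) and replicate 2 (downward), against the position of the partner anchor as distance from the PSCA start site in kb, with the anchor itself as a dotted line. LYPD2 has its highest counts of 7 and 8 at neighbouring anchors and further counts on both sides, while LY6H does not exceed 4 counts with any partner.

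Family promoters were joined with one another mainly over short distances. Of the 50 strong loops, 8 had family promoter anchors at both ends, 21 at 1 end and 21 at neither. Of the 8, 6 joined different genes, and the other two joined a pair of anchors of PSCA and a pair of anchors of LYNX1. Of the 66 pairs of family genes, 65 had separate anchors, and 35 of these had counts, 16 of them in both replicates. The 7 pairs with 5 or more counts spanned up to 34.8 kb, and the shortest of the 30 pairs at 0 spanned 62.1 kb. Pairs with SLURP2 and pairs with LYNX1 hold some of the same counts, because these genes share an anchor. A count of 0 allows up to 3 counts at this depth as a one-sided 95% limit, which is lower than the upper end of the two-sided intervals given elsewhere. Over the 88 pairs of anchors at promoters of different family genes, the 103 counts were 6.10 times those expected from distance alone (4.98 to 7.40), and 1.13 times those expected from distance and depth (0.923 to 1.37). With depth in the expectation the interval includes 1.

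**Figure D4:**
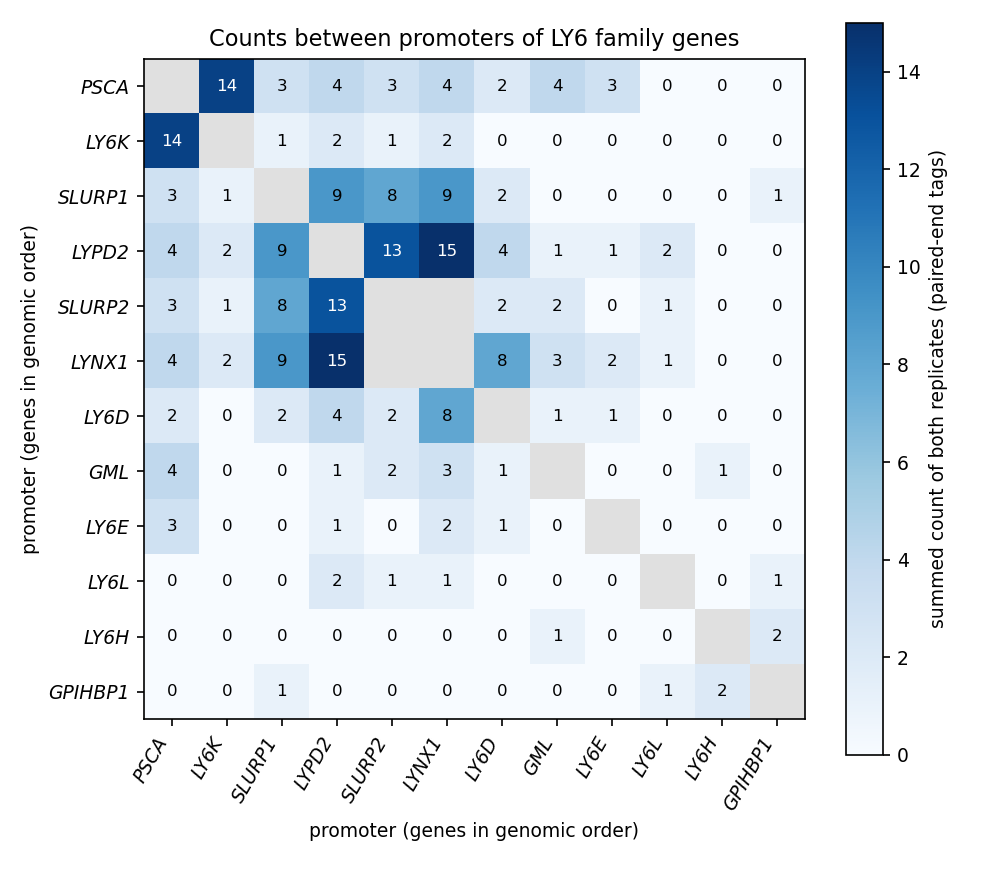
Summed counts of both replicates between the promoters of 12 LY6 family genes, in genomic order on both axes, with shade by count (paired-end tags) and grey for pairs that cannot be separated. Counts gather near the diagonal, with 15 between LYPD2 and LYNX1 and 14 between PSCA and LY6K, while LY6H has 2 with GPIHBP1 and 0 or 1 with every other gene. SLURP2 and LYNX1 share an anchor, so its counts enter the cells of both genes. The 13 counts between LYPD2 and SLURP2 are thus also among the 15 between LYPD2 and LYNX1.

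For the strong loops as a set, the median ratio to the count expected from distance and depth was 1.47, compared with 1.71 for all 28962 strong loops of the data, and the interval lay above the expectation for 10 of the 50 (20%), compared with 22.9%. Strong loops were chosen by their counts, so ratios above 1 are partly given by that choice.

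**Figure D5:**
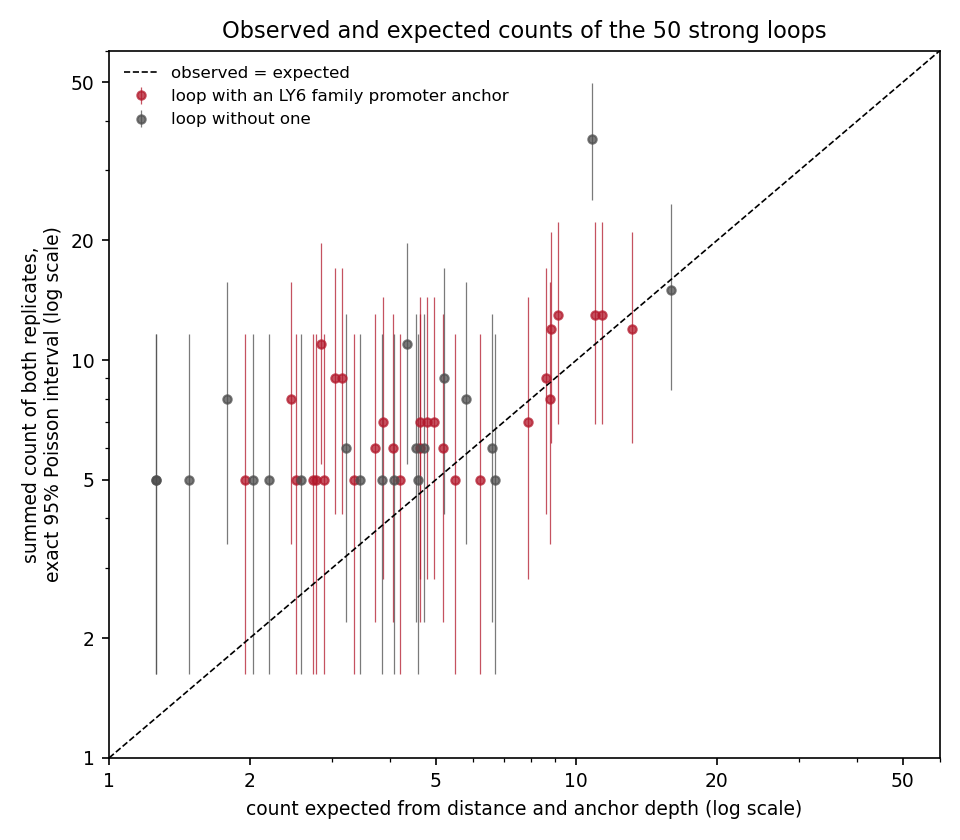
Summed counts of the 50 strong loops with exact 95% Poisson intervals against the counts expected from distance and anchor depth, both on log scales, for loops with (red) and without (grey) a family promoter anchor. The loop with 36 counts lies above the dashed line of equality, and most others have intervals that include it.

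Over all pairs of the window the counts were 2.21 times those expected from distance alone (2.12 to 2.30). With anchor depth in the expectation the ratio was 1.17 for pairs inside the window (1.11 to 1.24) and 0.643 for pairs that left it (0.603 to 0.686). The weights fit each anchor's total, so these last values describe how the counts of the anchors were divided between near and far partners. The window was divided into parts of 200 kb, after values had been seen, with anchors placed by their midpoints. The LY6E anchor spans the edge of the middle and last parts, and its midpoint fell just inside the last. How the ratios depend on this placement was not tested. Counts between the first part, with ARC to LY6D, and the last, with LY6E to GPIHBP1, were 72 and 78. They were 4.72 times the distance expectation (3.99 to 5.54) and 1.505 times that with depth (1.27 to 1.77). Of the combinations with the middle part, the first had 0.987 times the expectation with depth (0.835 to 1.16) and the last 1.19 times (0.992 to 1.42). Within the first, middle and last parts the ratios with depth were 1.15 (1.05 to 1.25), 1.36 (1.14 to 1.605) and 1.11 (0.982 to 1.26). None of the 117 loops between the first and the last part was strong, the highest summed count was 4, and 11 were found in both replicates.

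The window was not isolated in these values. Among 3849 windows of 600 kb with at least 20 anchors, with anchors assigned by their midpoints, 3.27% of the loops of the LY6 window were strong, compared with a median of 0.723%, and 92 windows had a higher share. Among these was the adjacent chr8:144300000-144900000, at 4.81%. Copy number was not measured here, and its part in the depth of these anchors was not tested.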

How the data were processed

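The authors cut HCT116 chromatin with MboI and ran HiC-Pro for valid pairs and hichipper for loops. For each replicate they deposited raw counts of paired-end tags per anchor pair, not normalized (hg19 per the labels; versions and the source of the anchors are not given in the sources used here). Each table held its own replicate. All 71 anchors of the window begin and end at MboI sites when positions are counted from 1. Members and lists were chosen with earlier results of these data known.

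Expected counts used 60 log distance classes and anchor weights balanced in 20 rounds over all pairs up to 2 Mb, with the pair left out of its anchors' depth and an offset of 0.5. Their computation was checked only on counts simulated from its own fit, which cannot show how well it fits the real counts. Named loops were the 10 with the highest counts, up to 3 per family promoter, those of at least 2 counts between family promoters, and exceptions stated beside them. Named anchors were the 5 with the most strong loops. Genes came from GENCODE release 44 on GRCh37. Depth was 1885481 and 2131466 counts. The split between replicates was tested by an exact binomial test against the totals of loops up to 2 Mb. Pairs over 2 Mb were left out. Alternatives were the count threshold, distance limit, promoter width, expectation and each replicate left out. The scripts used Python 3.11.15 with statsmodels 0.14.6, scipy 1.17.1, numba 0.67.0, numpy 2.4.6, pandas 2.3.3 and matplotlib 3.10.9.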

Additional observations from a re-analysis of the deposited data

How the results depend on the processing

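The mean number of loops per replicate, 855, was 148.5 with a minimum count of 2, 14 with a minimum of 5 and 432 with both anchors in the window, and 814 to 896 with a replicate left out. The share of strong loops, 3.34%, was 0.602% at a summed count of at least 10, 2.36% without a distance limit, 6.46% with both anchors in the window, and 1.47% to 1.79% when 1 replicate alone had to reach 5 counts. Of the 12 family promoters with a strong loop, 5 had one at a summed count of at least 10, and 5 to 7 with a replicate left out, namely 7 without replicate 1 and 5 without replicate 2. The count of promoters was 8 to 12 under the other definitions of promoter and length. The ratio of observed to expected counts over the window, 0.877, was 2.21 with distance alone and 0.874 to 0.8801 with a replicate left out. The weights fit each anchor's total, so the value of 0.877 over the window carries the division between near and far pairs and no level. Of 46 named loops, 5 had an interval above the expected count, 33 did with distance alone and 3 to 6 with a replicate left out, with 3 without replicate 2. The number of loops whose split between replicates passed the binomial test was 0 in the main setting and in both alternatives. No paired analysis was possible because the replicates form 1 group.

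Loops with a summed count near 5 have intervals that span several-fold, and wide anchors cannot separate neighbouring promoters.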

Other observations

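Pairs of the window over 2 Mb numbered 621, with 295 counts in replicate 1 and 327 in replicate 2, and their highest summed count was 2.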
